A study of Arabidopsis thaliana with 24 samples.

Results

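The small (40S) subunit of the cytoplasmic ribosome is built from rRNA and a set of proteins, most of which are encoded in Arabidopsis by several closely related genes (paralogs). The loci described here encode 22 of these proteins, SA to S27a, and the list does not hold every locus of each. The list held 60 loci, and a locus was counted as measured when the array annotation gave it a probe set (a group of probes summarised to 1 value) that named no other gene. This was so for 46 loci of 19 proteins, out of 16552 genes measured in the same way, and each of the 46 had a single probe set. The other 14 loci, among them all those of SA, S5 and S18, were not analysed here. Of the 19 proteins, 15 had at least 2 measured paralogs, which gave 43 pairs of paralogs to compare. The assignment of loci to proteins followed the standard nomenclature, which the array annotation does not carry, and loci are named by their locus codes, in which the digit after AT is the chromosome.

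Shoots and roots of 33-day-old plants of 2 lines were hybridised to Affymetrix Arabidopsis gene arrays, with 3 biological replicates of each of 8 groups (24 arrays). OX.7.5 overexpresses NBR1, a receptor that delivers cargo to selective autophagy; per the methods it was made in Col-0 and carries the whole NBR1 reading frame fused to a TAP tag behind a constitutive viral promoter, and it is a single line. WT is Col-0. Plants of both lines were sampled at low sulfate (-S) or at sufficient sulfate (nS). Per the methods, all plants first grew for weeks at sufficient sulfate. The -S plants were then moved to low sulfate for only a few days before RNA was taken. The labels describe growth on soil and the methods hydroponic boxes, and this difference was not resolved. NBR1 itself was not analysed here, so the overexpression was not checked on these arrays.

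In the ribosome, the 40S subunit binds the mRNA and reads its codons, while the large subunit joins the amino acids. Its head and its body close around the mRNA, and the decoding site lies between them. Making ribosomes takes up a large share of the nitrogen, phosphorus and energy of a plant cell, and in growing cells the genes of ribosomal proteins are usually transcribed together. Paralogs of 1 protein encode nearly the same chain and can differ in the organ, stage or condition in which they are transcribed.

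The deposited values are log2 signals. Array medians lay between 2.58 and 2.63 in roots and between 3.92 and 3.97 in shoots, so that signals were not compared between organs, and arrays of a group correlated at 0.974 to 0.991. The signal of a probe set depends on its probes as well as on the transcript, and hybridisation of 1 paralog to the probes of another was not tested. Rubisco activase, a leaf gene, stood at percentile 47.3 of gene signals in roots and 99.6 in shoots, and the root hair expansin EXPA7 at percentile 74.3 in roots and 22.9 in shoots. The other measured root genes were high in both organs, PYK10 at percentile 99.8 in roots and 92.6 in shoots and AT5G44020 at 97.5 in roots and 92.1 in shoots. Only these genes of the leaf and root lists (1 of 11 and 3 of 9) were measured, and none of 12 markers of dividing cells was. The nS and the -S samples carry separate runs of sample numbers, and whatever differed between these runs cannot be told apart from sulfur.

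Most of the set rose in roots at -S. In OX.7.5 roots 32 of the 46 members were higher at -S (adjusted p under 0.05 from limma), where 10.5% of all genes were, and in WT roots 34 were, where 12.5% of all genes were. None was lower in either line (0 also at an unadjusted p under 0.05), against 9.89% and 10.1% of all genes. The median log2 change of the members was 0.59 in OX.7.5 and 0.53 in WT, while that of all genes was -0.02 and -0.06. Loci of head proteins (24) and of body proteins (22) had close medians, 0.57 and 0.59 in OX.7.5 and 0.52 and 0.59 in WT. By the thresholds of the methods, a fold of at least 1.5 with an unadjusted p under 0.05, 24 members were higher in OX.7.5 roots (8.15% of all genes) and 21 in WT roots (9.57%). In 42 members every -S array of OX.7.5 roots lay above every nS array, and in 36 members this was so in WT roots, against 17.3% and 17% of all genes. The mean signal of the 3 measured root markers was 6.07 to 6.56 on OX.7.5 -S arrays, against 7.23 to 7.31 on OX.7.5 nS arrays, and 6.39 to 6.49 on WT -S arrays, against 7.29 to 7.53 on WT nS arrays. By gene, AT5G44020 fell by 1.81 in OX.7.5 roots and by 1.56 in WT roots, and by 1.50 in WT shoots as well. PYK10 fell by 1.36 in OX.7.5 roots and changed by -0.98 in WT roots without a call (adjusted p = 0.161), and EXPA7 was not called, at 0.11 in OX.7.5 roots and -0.37 in WT roots (adjusted p = 0.744 and 0.0931). The part of these changes in the result was not tested, and a change in the makeup of the root cannot be told apart from a change in RNA per cell.

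**Figure D1:**
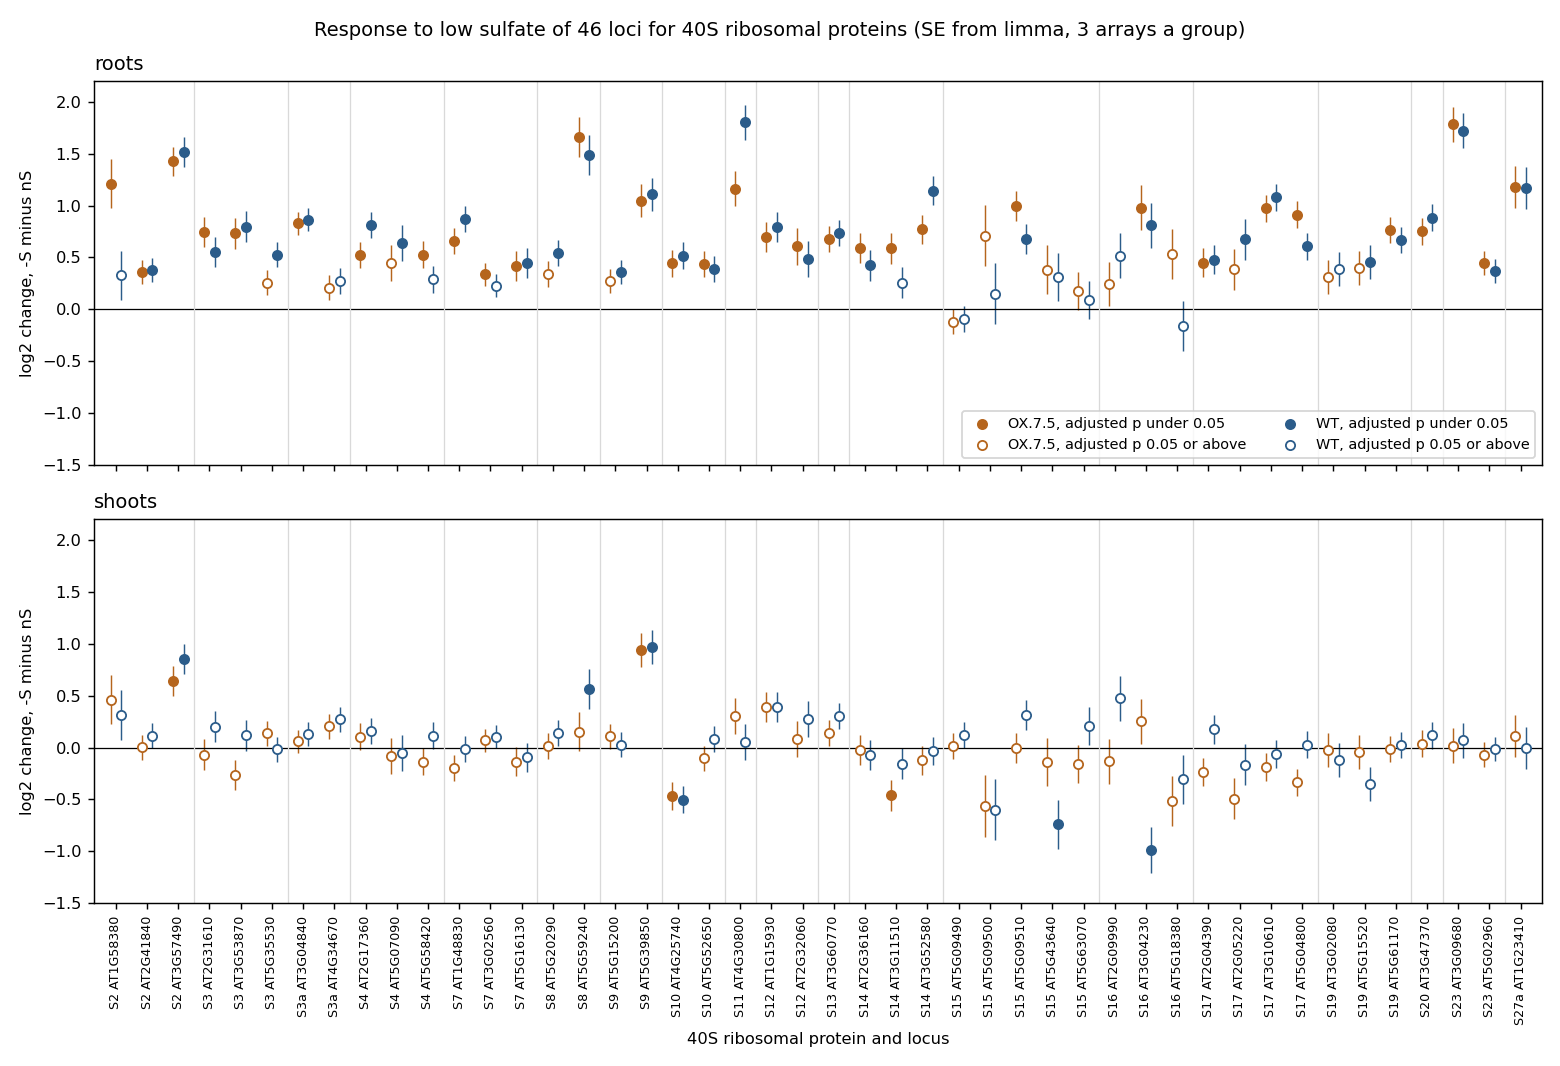
Log2 change at -S (vertical axis, -S minus nS) of the 46 measured loci, ordered by protein (horizontal axis), in roots (upper panel) and shoots (lower panel). Points are estimates in OX.7.5 and WT with standard errors, and filled points passed an adjusted p of 0.05. In roots 32 and 34 points are filled and all of these lie above 0, while in shoots 4 and 6 are filled, on both sides of 0.

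Every one of the 19 proteins had at least 1 locus that rose in the roots of both lines. By locus, 28 rose in both lines, 4 in OX.7.5 alone, 6 in WT alone and 8 in neither, though a call in 1 line alone does not show that the lines differ. In 3 of the 15 proteins with several measured loci, S10, S12 and S23, all loci passed the threshold in both lines, and in the other 12 at least 1 locus missed it in at least 1 line, which does not show that this locus did not rise. When the response was averaged over both lines, 40 of 46 members were higher (15.9% of all genes). The 6 that were not are the 5 loci of lowest signal in roots, 4 of S15 and 1 of S16, and the S16 locus AT5G18380.

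On the mean of both lines the largest change in roots was that of AT3G09680, which encodes S23, the protein of the decoding centre. Its signal was 4.40, 4.42 and 4.37 on OX.7.5 -S arrays, against 2.85, 2.31 and 2.69 on OX.7.5 nS arrays, and 4.23, 4.06 and 4.35 on WT -S arrays, against 2.39, 2.35 and 2.73 on WT nS arrays. All 6 -S arrays stood well above all 6 nS arrays. The rise was 3.44-fold in OX.7.5 (log2 1.78, SE 0.17, adjusted p = 2.54e-08) and 3.3-fold in WT (log2 1.72, SE 0.17, adjusted p = 4.03e-08). Its paralog AT5G02960 had 8.79, 8.95 and 8.83 on OX.7.5 -S arrays, against 8.35, 8.34 and 8.54 on OX.7.5 nS arrays, and 8.86, 8.86 and 9.03 on WT -S arrays, against 8.63, 8.39 and 8.63 on WT nS arrays. These groups did not overlap either, but the steps were small, 0.45 in OX.7.5 and 0.37 in WT (adjusted p = 0.00677 and 0.0254), and the WT call was lost without WT roots nS replicate 2 (0.29) or -S replicate 3 (0.31) and when quantile normalization was repeated within the organ (0.23, adjusted p = 0.193). Within arrays, the response of AT3G09680 exceeded that of AT5G02960 by 1.34 on the log2 scale (mean of both lines, 95% interval 1.10 to 1.59, adjusted p = 3.16e-09), the largest difference among the 43 pairs in roots.

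S8, a protein of the body, showed the same contrast between a strongly and a weakly answering locus. AT5G59240 had 3.84, 4.35 and 3.96 on OX.7.5 -S arrays, against 2.23, 2.17 and 2.77 on OX.7.5 nS arrays, and 3.94, 3.72 and 4.06 on WT -S arrays, against 2.03, 2.79 and 2.44 on WT nS arrays. No -S array overlapped with an nS array, and the rise was 3.16-fold in OX.7.5 and 2.8-fold in WT (SE 0.19 on the log2 scale in each, adjusted p = 4.83e-07 and 2.18e-06). Its paralog AT5G20290, with the highest mean signal of all members in roots (8.84), had 8.90, 9.26 and 8.99 on OX.7.5 -S arrays, against 8.70, 8.66 and 8.77 on OX.7.5 nS arrays, and 9.04, 9.10 and 9.10 on WT -S arrays, against 8.32, 8.66 and 8.63 on WT nS arrays. The groups stood apart by little here, with changes of 0.34 in OX.7.5 (adjusted p = 0.0536) and 0.54 in WT (adjusted p = 0.00211). The response of AT5G20290 minus that of AT5G59240 was -1.13 (95% interval -1.40 to -0.87, adjusted p = 1.52e-07).

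S2, which lines the channel by which mRNA enters the subunit, had 3 measured loci. AT3G57490 had 5.53, 5.60 and 5.91 on OX.7.5 -S root arrays, against 4.30, 4.40 and 4.06 on OX.7.5 nS arrays, and 5.56, 5.50 and 5.51 on WT -S arrays, against 3.95, 3.76 and 4.31 on WT nS arrays. Every -S array was above every nS array by more than 1 log2 unit, and the rise was 2.68-fold in OX.7.5 and 2.85-fold in WT (SE 0.14 on the log2 scale in each, adjusted p = 5.68e-08 and 1.88e-08). AT2G41840 had 8.37, 8.68 and 8.67 on OX.7.5 -S arrays, against 8.22, 8.26 and 8.17 on OX.7.5 nS arrays, and 8.58, 8.39 and 8.67 on WT -S arrays, against 8.13, 8.30 and 8.07 on WT nS arrays. The groups were distinct but close, with changes of 0.36 and 0.38 (adjusted p = 0.0328 and 0.0227), and both calls were marginal: the OX.7.5 call was lost without any 1 of 5 OX.7.5 root arrays (all but -S replicate 1, changes of 0.31 to 0.38) and the WT call without WT replicate 1 or 3 of either supply (0.31 to 0.36) and with repeated quantile normalization (0.24, adjusted p = 0.145). The difference of the responses, AT2G41840 minus AT3G57490, was -1.10 (95% interval -1.33 to -0.87, adjusted p = 2.39e-08), and it was -1.07 in OX.7.5 and -1.14 in WT. The third S2 locus, AT1G58380, is described with the lines.

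For S9, an early binder of rRNA whose bacterial counterpart helps to keep decoding accurate, AT5G39850 had 5.50, 5.62 and 5.80 on OX.7.5 -S root arrays, against 4.63, 4.62 and 4.52 on OX.7.5 nS arrays, and 5.57, 5.69 and 5.92 on WT -S arrays, against 4.86, 4.40 and 4.59 on WT nS arrays. The groups did not overlap, and the rise was 2.07-fold and 2.16-fold (adjusted p = 2.96e-05 in OX.7.5 and 1.25e-05 in WT). Its paralog AT5G15200 had 7.54, 7.66 and 7.47 on OX.7.5 -S arrays, against 7.34, 7.12 and 7.38 on OX.7.5 nS arrays, and 7.63, 7.70 and 7.64 on WT -S arrays, against 7.35, 7.29 and 7.24 on WT nS arrays. The changes were 0.27 (adjusted p = 0.118) and 0.36 (adjusted p = 0.03), and the WT call was lost without WT roots nS replicate 2 or 3 or any -S replicate (0.33 to 0.37), and when quantile normalization was repeated within the organ (0.18, adjusted p = 0.344). The response of AT5G15200 minus that of AT5G39850 was -0.76 (95% interval -1.004 to -0.52, adjusted p = 1.47e-05).

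**Figure D2:**
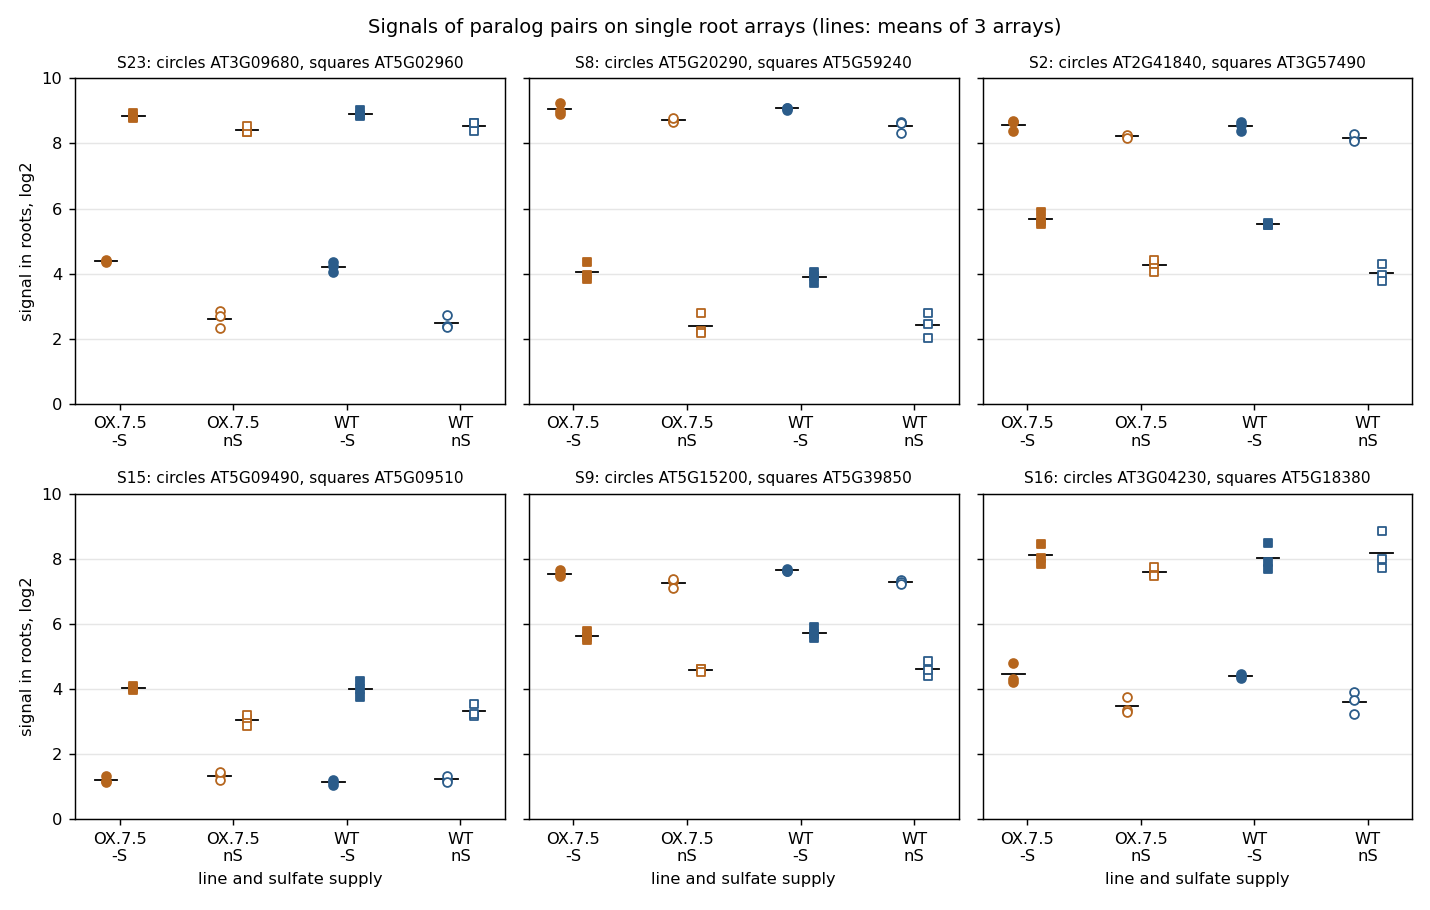
Log2 signals on single root arrays (vertical axis) of the 6 pairs of paralogs named by their difference of response in roots, by line and sulfate supply (horizontal axis). Circles and squares are the loci named above each panel, filled at -S and open at nS, with a line at the mean of 3 arrays. In the panels of S23, S8, S2 and S9 the locus of lower signal shows the larger step, between 1.05 and 1.78 in OX.7.5, while its paralog moves by 0.27 to 0.45.

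Smaller differences between paralogs were measured for the other proteins of the body. For S3a, at the channel by which mRNA leaves, AT3G04840 rose by 0.83 and 0.86 (adjusted p = 5.01e-06 in OX.7.5 and 2.52e-06 in WT), while AT4G34670 had 8.02, 8.29 and 8.05 on OX.7.5 -S arrays, against 7.75, 8.01 and 7.97 on OX.7.5 nS arrays, and 8.10, 8.05 and 8.25 on WT -S arrays, against 7.68, 7.98 and 7.92 on WT nS arrays. All -S arrays of AT4G34670 lay just above the nS range of their line, but it was called in neither line (0.21 and 0.27, adjusted p = 0.292 and 0.122). The S3a pair differed by 0.61 (adjusted p = 3.03e-06), with mean signals of both loci near 8 in roots. For S7, needed in human and yeast cells to mature the rRNA of the subunit, AT1G48830 changed by 0.66 and 0.87, AT3G02560 by 0.34 and 0.23 and AT5G16130 by 0.42 and 0.44, and only AT3G02560 in WT was not called (adjusted p = 0.156). The 3 loci of S4 changed by 0.45 to 0.53 in OX.7.5 and by 0.29 to 0.81 in WT. No pair of them differed past the threshold on the mean of both lines. By line, AT2G17360 minus AT5G58420 was 0.53 in WT (adjusted p = 0.0137) and 0 in OX.7.5. For S14, which lies at the platform next to the end of the rRNA, AT3G52580 changed by 0.77 and 1.14, more on the mean of both lines than AT2G36160 (difference -0.45, adjusted p = 0.00849) and AT3G11510 (difference -0.54, adjusted p = 0.000596). Both differences were -0.18 in OX.7.5 (adjusted p = 0.606 and 0.53), and they were -0.72 and -0.89 in WT (adjusted p = 0.00483 and 0.000185). The log2 ratios to AT3G52580 were highest on WT roots nS replicate 1, at 2.84 and 2.59. They were 2.01 and 1.86 on nS replicate 2 and 2.09 and 1.98 on nS replicate 3. The single measured locus of S13, AT3G60770, rose by 0.68 and 0.74.

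Of S11, whose bacterial counterpart binds rRNA directly, 1 locus was measured, AT4G30800. It had 3.59, 4.13 and 3.93 on OX.7.5 -S root arrays, against 2.63, 2.88 and 2.65 on OX.7.5 nS arrays, and 3.99, 3.94 and 3.98 on WT -S arrays, against 2.43, 1.94 and 2.14 on WT nS arrays. The -S arrays of both lines shared 1 range, and the nS arrays of OX.7.5 lay above those of WT. The rise was 2.24-fold in OX.7.5 (log2 1.16, SE 0.17, adjusted p = 1.55e-05) and 3.49-fold in WT (log2 1.80, SE 0.17, adjusted p = 1.88e-08).

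Among the proteins of the head, the largest change was that of AT1G23410, which encodes S27a as a fusion with ubiquitin that is cut off to free the ribosomal protein. It had 4.36, 4.57 and 3.99 on OX.7.5 -S root arrays, against 3.28, 2.85 and 3.27 on OX.7.5 nS arrays, and 4.38, 4.22 and 4.69 on WT -S arrays, against 3.78, 2.95 and 3.05 on WT nS arrays. The groups did not overlap, and the rise was 2.26-fold in OX.7.5 and 2.25-fold in WT (SE 0.20 on the log2 scale in each, adjusted p = 1e-04 and 9.92e-05). S20, which is marked with ubiquitin in human cells when ribosomes collide, had 1 measured locus, AT3G47370, which rose by 0.75 and 0.88. For S3, beside the mRNA entry, AT2G31610 rose by 0.74 and 0.55, AT3G53870 by 0.73 and 0.80, and AT5G35530 changed by 0.26 (adjusted p = 0.15) and 0.53 (adjusted p = 0.00195). Among these, only AT3G53870 and AT5G35530 differed on the mean of both lines (difference 0.37, adjusted p = 0.0127). By line, this difference was 0.48 in OX.7.5 (adjusted p = 0.0353) and 0.27 in WT (adjusted p = 0.253). AT2G31610 minus AT5G35530 was 0.49 in OX.7.5 (adjusted p = 0.0325) and 0.03 in WT (adjusted p = 0.934).

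For S10 and S12 no difference between paralogs was called in roots. AT4G25740 and AT5G52650 of S10 changed by 0.44 and 0.44 in OX.7.5 roots and by 0.52 and 0.39 in WT roots (difference 0.07, 95% interval -0.12 to 0.25). AT1G15930 and AT2G32060 of S12 changed by 0.70 and 0.61 in OX.7.5 and by 0.79 and 0.48 in WT (difference 0.20, 95% interval -0.11 to 0.51). Neither difference passed the threshold, and the intervals do not show that the loci acted alike. In S17, AT3G10610 (0.97 in OX.7.5 and 1.08 in WT) answered more, on the mean of both lines, than each of the other 3 loci: AT2G04390 (difference -0.56), AT2G05220 (difference -0.49) and AT5G04800 (difference 0.27, taken the other way round), at adjusted p = 0.00146, 0.00919 and 0.0489. AT5G04800 changed by 0.91 in OX.7.5 and 0.61 in WT. Its difference from AT3G10610 was 0.06 in OX.7.5 (adjusted p = 0.86) and 0.47 in WT (adjusted p = 0.0186). In S19, which is needed to mature the rRNA of the subunit and is the gene most often mutated in Diamond-Blackfan anaemia in humans, AT5G61170 (0.76 and 0.67) answered more, on the mean of both lines, than AT3G02080 (difference -0.37, adjusted p = 0.00577) and AT5G15520 (difference -0.29, adjusted p = 0.0493). By line, the difference from AT3G02080 was called in OX.7.5 (-0.45, adjusted p = 0.0234) and not in WT (-0.28, adjusted p = 0.164). The difference from AT5G15520 was called in neither line (adjusted p = 0.108 in OX.7.5 and 0.383 in WT).

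S15, whose tail reaches towards the decoding site, had the most measured loci, 5. Only AT5G09510 was called in roots, with 4.05, 3.97 and 4.11 on OX.7.5 -S arrays, against 3.07, 2.87 and 3.20 on OX.7.5 nS arrays, and 4.26, 3.75 and 4.01 on WT -S arrays, against 3.18, 3.24 and 3.55 on WT nS arrays. These groups did not overlap, and the rise was 0.99 in OX.7.5 and 0.68 in WT (adjusted p = 1.28e-05 and 0.000929). The neighbouring locus AT5G09490 had 1.15, 1.33 and 1.18 on OX.7.5 -S arrays, against 1.37, 1.19 and 1.46 on OX.7.5 nS arrays, and 1.15, 1.20 and 1.06 on WT -S arrays, against 1.21, 1.32 and 1.15 on WT nS arrays. Its groups overlapped, with changes of -0.12 and -0.09, and the response of AT5G09490 minus that of AT5G09510 was -0.94 (95% interval -1.19 to -0.70, adjusted p = 6.36e-07). AT5G63070 had 1.53, 0.92 and 0.86 on OX.7.5 -S arrays, against 0.80, 1.08 and 0.90 on OX.7.5 nS arrays, and 1.04, 1.19 and 1.20 on WT -S arrays, against 1.13, 1.06 and 0.97 on WT nS arrays, with no call in either line (adjusted p = 0.626 and 0.78). Of the S15 loci, AT5G09490, AT5G09500 and AT5G09510 lie next to each other on chromosome 5 (2952216 to 2953245, 2953884 to 2954918 and 2955008 to 2956683 in the TAIR10.1 annotation of RefSeq), with 638 and 89 bases between them. The 4 S15 loci that were not called had mean root signals of 0.9996 to 1.36, below the array median.

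For S16, whose tail touches the tRNA from which the chain grows, AT5G18380 had 7.86, 8.47 and 8.04 on OX.7.5 -S root arrays, against 7.53, 7.75 and 7.50 on OX.7.5 nS arrays, and 7.69, 7.91 and 8.51 on WT -S arrays, against 8.86, 7.74 and 7.99 on WT nS arrays. The OX.7.5 groups did not overlap and the WT groups did, WT nS replicate 1 being the highest of all 12, and no call was made (0.53 and -0.16, adjusted p = 0.129 and 0.704). AT3G04230 had 4.82, 4.31 and 4.23 on OX.7.5 -S arrays, against 3.37, 3.76 and 3.29 on OX.7.5 nS arrays, and 4.36, 4.47 and 4.42 on WT -S arrays, against 3.90, 3.24 and 3.67 on WT nS arrays. Here no group of a line overlapped with its counterpart, and the rise was 0.98 in OX.7.5 (adjusted p = 0.00167) and 0.81 in WT (adjusted p = 0.00767, lost without WT roots nS replicate 2, at 0.63). The 2 loci differed by 0.71 (95% interval 0.30 to 1.11, adjusted p = 0.00651).

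Over all 43 pairs, 21 differed in their response in roots on the mean of both lines (p adjusted over the 16552 genes and 43 pair ratios fitted together, of which 30.8% passed). They came from 12 of the 15 proteins, and in all 21 the difference had the same direction in OX.7.5 and WT. The choice of pairs by the mean of both lines favours a shared direction, so this does not show that each line gave the difference. Tested by line, 14 of the 43 pairs were called in OX.7.5 roots and 15 in WT roots, where 20.4% and 22.6% of all genes were. The locus of lower signal had the larger response in 13 of the 21. Of the 22 pairs that were not called, the 95% intervals reached as far as -1.02 on the log2 scale, so that they do not show equal responses. The pairs of 1 protein share loci and are not independent.

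**Figure D3:**
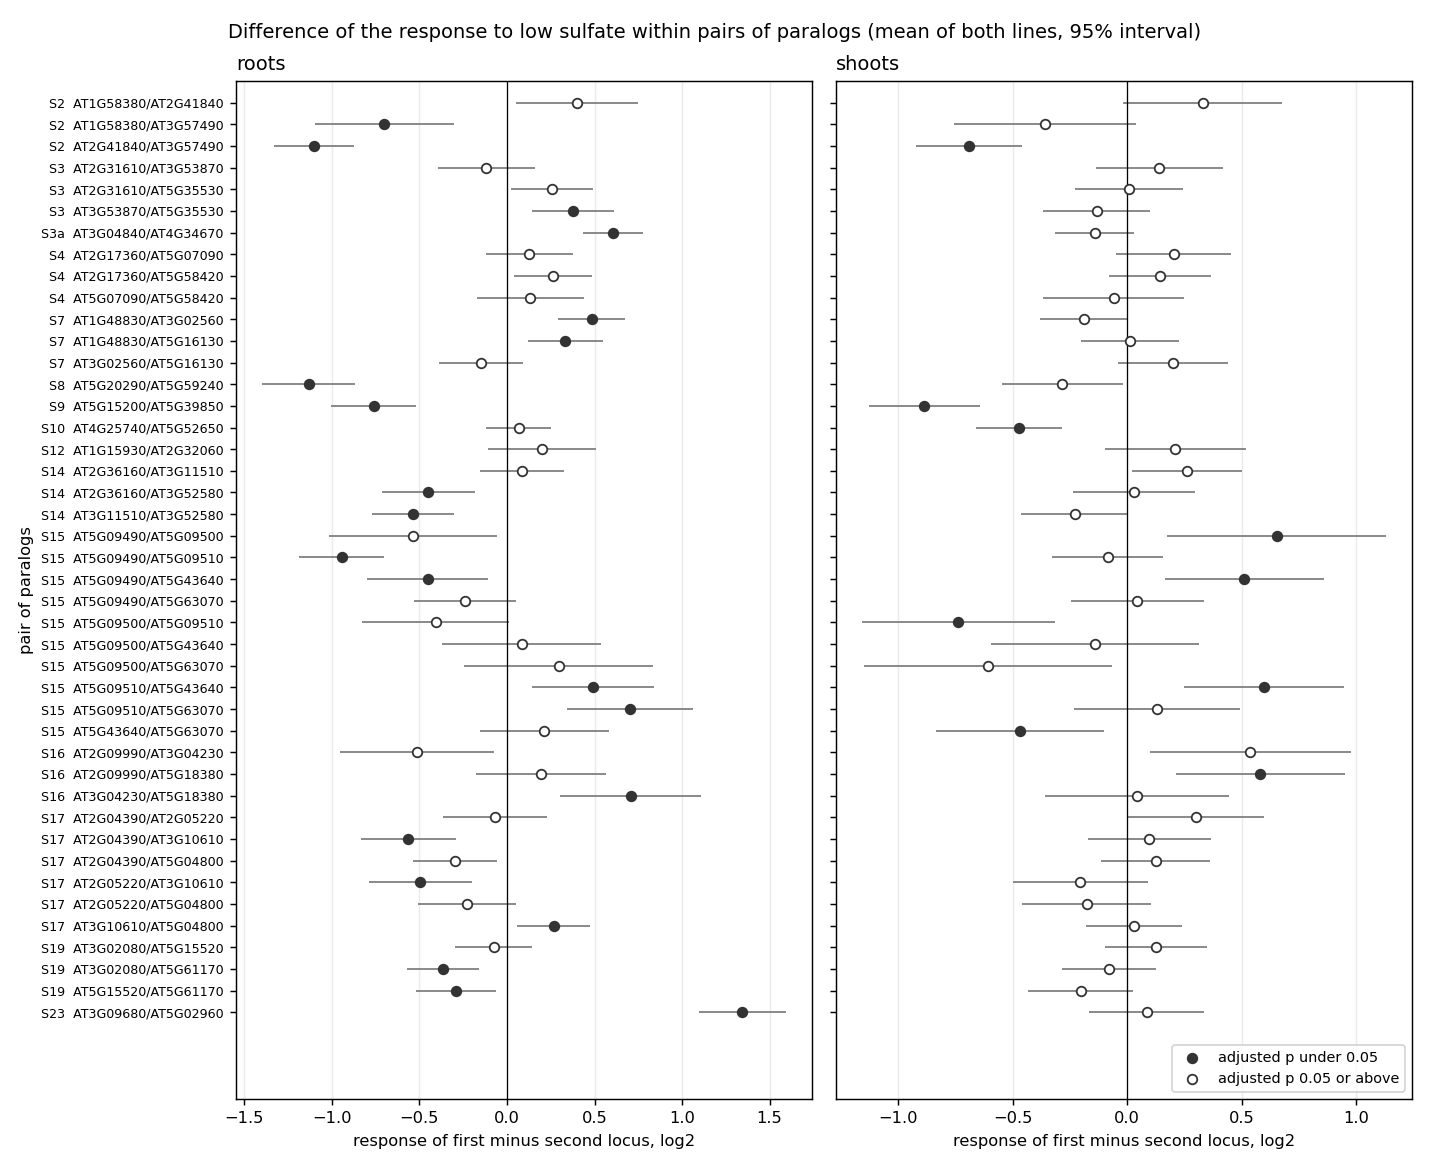
Difference of the response to -S between the first and the second locus of each of 43 pairs (vertical axis), in log2 units (horizontal axis, mean of both lines), in roots and in shoots. Points are estimates with 95% intervals, filled where the adjusted p was under 0.05. In roots 21 intervals with filled points are seen, from S23 at 1.34 to S8 at -1.13, and in shoots 9, the largest that of S9 at -0.88.

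Over the 46 loci, the change in roots (mean of both lines) and the probe set signal had a Spearman's rho of -0.25 and a Pearson's r of -0.19, given as a description, since signals of different probe sets are not levels of transcripts on 1 scale. The change did not fall steadily with signal. Its median was 0.48 (highest 1.03) in the 31 members at percentile 90 or above of gene signals in roots. In the 10 at percentile 60 to under 90 it was 1.13 (0.54 to 1.75), and in the 5 under percentile 60 it was 0.35. How far the signal of a probe set shapes the differences between paralogs was not tested.

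No such shift of the whole set was seen in shoots. At -S, 2 members were higher and 2 lower in OX.7.5 shoots, where 7.78% and 7.37% of all genes were, and 3 were higher and 3 lower in WT shoots, where 11.8% and 12.7% of all genes were. The median change was -0.02 in OX.7.5 and 0.08 in WT, while that of all genes was 0.00 and -0.03. Every -S array lay above every nS array for 6 members in OX.7.5 and 11 in WT, against 15.9% and 17.3% of all genes, and below it for 8 and 2, against 15.1% and 18.1%.

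Both members that rose in the shoots of both lines had also risen in roots. The S9 locus AT5G39850 had 6.12, 6.08 and 6.18 on OX.7.5 -S shoot arrays, against 5.20, 5.05 and 5.32 on OX.7.5 nS arrays, and 6.16, 6.22 and 6.14 on WT -S arrays, against 5.64, 5.16 and 4.81 on WT nS arrays. All -S arrays were above all nS arrays and close to each other, and the rise was 1.92-fold in OX.7.5 and 1.95-fold in WT (SE 0.16 on the log2 scale in each, adjusted p = 0.00019 and 6.41e-05). Its paralog AT5G15200 had 7.68, 7.47 and 7.62 on OX.7.5 -S arrays, against 7.41, 7.33 and 7.71 on OX.7.5 nS arrays, and 7.61, 7.59 and 7.56 on WT -S arrays, against 7.55, 7.63 and 7.51 on WT nS arrays. These groups overlapped in both lines, and the response of AT5G15200 minus that of AT5G39850 was -0.88 (95% interval -1.13 to -0.64, adjusted p = 1.96e-06).

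The S2 locus AT3G57490 had 4.74, 4.88 and 4.93 on OX.7.5 -S shoot arrays, against 4.08, 4.21 and 4.34 on OX.7.5 nS arrays, and 4.86, 5.06 and 4.93 on WT -S arrays, against 4.03, 4.01 and 4.26 on WT nS arrays. The groups did not overlap, and the rise was 1.56-fold in OX.7.5 and 1.81-fold in WT (adjusted p = 0.00252 and 6.89e-05). Its paralog AT2G41840 had 7.88, 8.09 and 8.01 on OX.7.5 -S arrays, against 7.999, 7.92 and 8.07 on OX.7.5 nS arrays, and 8.05, 7.96 and 8.08 on WT -S arrays, against 7.96, 7.91 and 7.88 on WT nS arrays, with overlap in OX.7.5 and a narrow gap in WT. The difference of the responses, AT2G41840 minus AT3G57490, was -0.69 (95% interval -0.92 to -0.46, adjusted p = 2.73e-05). The S8 locus AT5G59240 was called in WT shoots alone (0.56, adjusted p = 0.0323), with 2.50, 2.33 and 2.18 on WT -S arrays, against 1.74, 1.61 and 1.98 on WT nS arrays, and the call was lost without WT shoots nS replicate 1 or 2 or -S replicate 1 or 2 (changes of 0.48 to 0.57). The S12 locus AT1G15930 had 7.36, 7.52 and 7.86 on OX.7.5 -S arrays, against 7.12, 7.17 and 7.28 on OX.7.5 nS arrays, and 7.46, 7.50 and 7.50 on WT -S arrays, against 7.39, 7.001 and 6.92 on WT nS arrays. Its -S arrays were higher without overlap in both lines, with changes of 0.39 and 0.39 that missed the threshold (adjusted p = 0.0721 and 0.0529).

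The S10 locus AT4G25740 went the opposite way in shoots and roots. S10 lies at the head and, like S20, is marked with ubiquitin in human cells when ribosomes collide. In shoots it had 6.81, 7.05 and 6.96 on OX.7.5 -S arrays, against 7.51, 7.31 and 7.41 on OX.7.5 nS arrays, and 6.84, 6.86 and 6.83 on WT -S arrays, against 7.57, 7.18 and 7.30 on WT nS arrays. In roots it had 6.05, 6.11 and 5.93 on OX.7.5 -S arrays, against 5.59, 5.44 and 5.74 on OX.7.5 nS arrays, and 6.19, 5.86 and 6.19 on WT -S arrays, against 5.65, 5.46 and 5.58 on WT nS arrays. No group overlapped with its counterpart in either organ, the -S arrays being the lower in shoots and the higher in roots. The changes in shoots were -0.47 (adjusted p = 0.0151) and -0.50 (adjusted p = 0.0053), and the difference between organs, roots minus shoots, was 0.91 in OX.7.5 and 1.02 in WT (adjusted p = 0.00118 and 0.000262). In OX.7.5 the shoot call was lost without shoots nS replicate 1 (-0.42) or -S replicate 1 (-0.40), and the root call without roots nS replicate 2 (0.37) or -S replicate 2 (0.40). Its paralog AT5G52650 changed by -0.11 and 0.08 in shoots, and the response of AT4G25740 minus that of AT5G52650 was -0.47 there (adjusted p = 0.000207).

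Other calls of a fall in shoots were made in 1 line each. The S14 locus AT3G11510 fell in OX.7.5 shoots (-0.46, adjusted p = 0.0371), where it changed by -0.16 in WT, and the call was lost without OX.7.5 shoots nS replicate 1 or 3 or -S replicate 1 or 2. With AT4G25740, which is lost without replicate 1 of either supply, the count of 2 lower members in OX.7.5 shoots was then 0 or 1. The S15 locus AT5G43640 had 2.40, 2.40 and 2.79 on OX.7.5 -S shoot arrays, against 3.01, 2.40 and 2.60 on OX.7.5 nS arrays, and 2.74, 2.63 and 2.13 on WT -S arrays, against 2.72, 3.14 and 3.86 on WT nS arrays. Its groups overlapped in both lines and the WT fall (-0.74, adjusted p = 0.0203) was lost without WT shoots nS replicate 3 (-0.43) or -S replicate 3 (-0.56). AT5G09500, also of S15, had 3.46, 2.39 and 2.53 on OX.7.5 -S arrays, against 3.47, 3.34 and 3.28 on OX.7.5 nS arrays, and 2.72, 2.51 and 2.43 on WT -S arrays, against 3.17, 2.31 and 3.98 on WT nS arrays. Both lines held arrays far apart within a group, and the changes of -0.56 and -0.60 were not called (adjusted p = 0.239 and 0.159), though the WT change was without WT shoots nS replicate 2 (-1.02). The neighbour AT5G09510 had 4.76, 4.69 and 4.74 on OX.7.5 -S shoot arrays, against 4.64, 4.62 and 4.93 on OX.7.5 nS arrays, and 4.83, 4.84 and 4.89 on WT -S arrays, against 4.49, 4.39 and 4.75 on WT nS arrays, and AT5G09490 had 2.39, 2.21 and 2.51 on OX.7.5 -S arrays, against 2.33, 2.30 and 2.41 on OX.7.5 nS arrays, and 2.41, 2.27 and 2.29 on WT -S arrays, against 2.02, 2.42 and 2.16 on WT nS arrays. Neither was called in shoots. Against AT5G09510, the response of AT5G09500 differed by -0.74 on the mean of both lines (adjusted p = 0.00657), and AT5G09490 minus AT5G09500 gave 0.65 (adjusted p = 0.0349). The second of these was lost without any 1 of 8 shoot arrays, and without WT nS replicate 3 it was 0.44. The S16 locus AT5G18380 had 6.57, 6.24 and 6.75 on OX.7.5 -S arrays, against 7.05, 7.01 and 7.05 on OX.7.5 nS arrays, and 7.07, 6.48 and 6.59 on WT -S arrays, against 7.26, 6.85 and 6.96 on WT nS arrays, lower without a call in both lines (-0.52 and -0.31).

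In shoots 9 of the 43 pairs differed in their response, where 29.9% of all rows fitted did. They came from S2, S9, S10, S15 and S16, 8 had the same direction in both lines, and 5 of the 9 were pairs of S15. Only 3 were called when genes of low signal in both organs were left out, which removes 4 loci of S15 and 1 of S16. Tested by line, 2 of the 43 pairs were called in OX.7.5 shoots and 9 in WT shoots, where 15.1% and 24.6% of all genes were.

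The response in roots was tested directly against that in shoots. In OX.7.5 the response was greater in roots for 26 members (7.88% of all genes) and in WT for 21 (12.1%), and none was smaller, while 8.48% and 10.3% of all genes were. In 15 members this held in both lines, in 11 in OX.7.5 alone and in 6 in WT alone. The S23 locus AT3G09680 had the largest difference in OX.7.5 (1.76, SE 0.24, adjusted p = 1.52e-05), with shoot signals of 2.52, 2.14 and 2.37 on OX.7.5 -S arrays, against 2.52, 2.12 and 2.34 on OX.7.5 nS arrays, and it was 1.65 in WT. Its shoot groups overlapped fully. The mean shoot signal of AT3G09680 (2.27) stood at percentile 24.1 of gene signals, below the array medians, and whether it lay above background was not tested. For the S9 locus AT5G39850, which rose in both organs, the difference was 0.11 and 0.14 and was not called (adjusted p = 0.825 and 0.728). The organs appear to have been normalised apart, so these differences compare log2 changes and not levels.

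**Figure D4:**
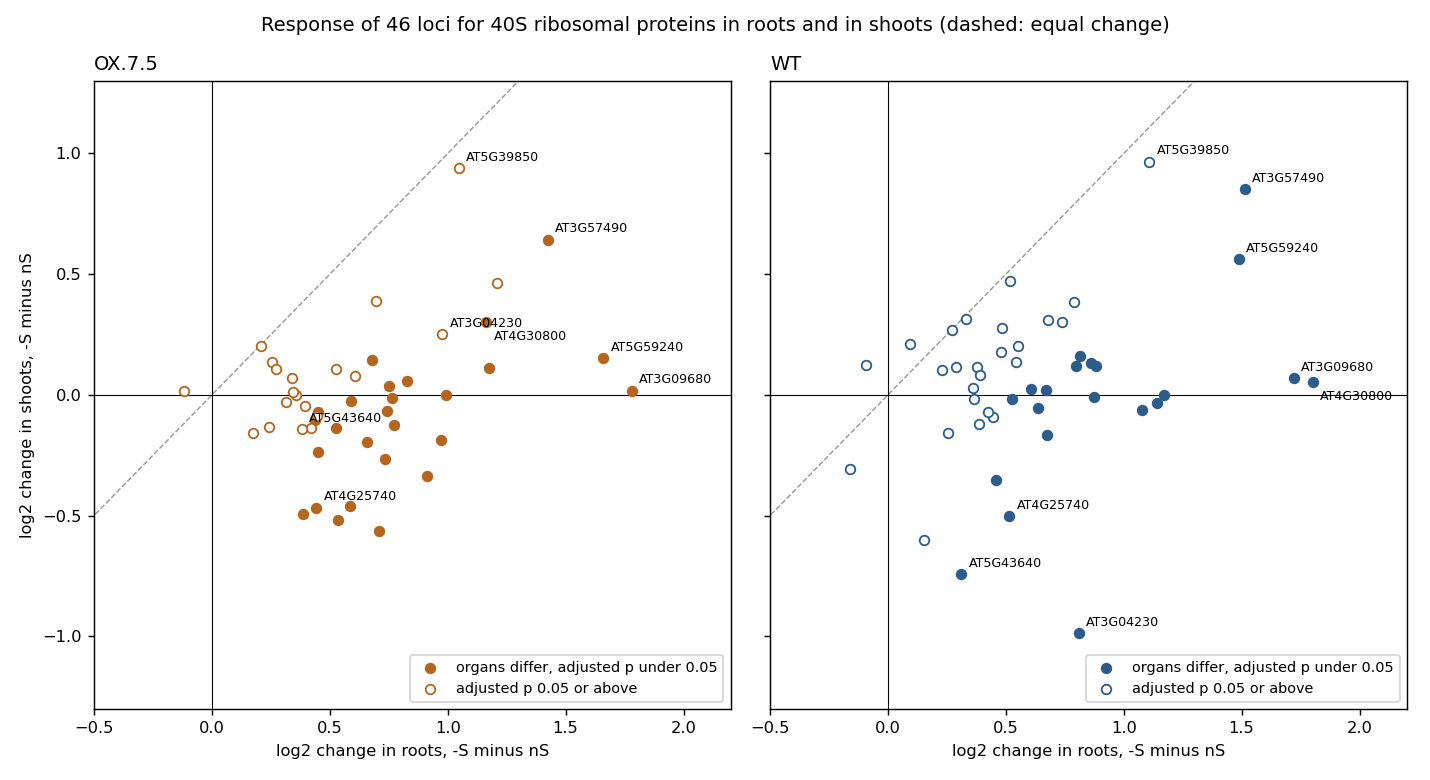
Log2 change at -S in roots (horizontal axis) and in shoots (vertical axis) of the 46 loci, in OX.7.5 and WT. Filled points had an adjusted p under 0.05 for the difference between organs (26 in OX.7.5, 21 in WT), and the dashed line marks equal change. Filled points lie below the dashed line, and AT5G39850 lies close to it in both lines.

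Few differences between the lines passed the test. OX.7.5 minus WT gave 0 called members in nS roots (0.852% of all genes, either direction, and 2 members at an unadjusted p under 0.05) and 0 in -S roots (0% of all genes, and 0 at an unadjusted p under 0.05). It gave 1 in nS shoots (1.7% of all genes, and 5 at an unadjusted p under 0.05) and 0 in -S shoots (0.0785%, and 1 at an unadjusted p under 0.05). The line by sulfur difference, the response of OX.7.5 minus that of WT, was called for 0 members in roots (0.0604%, smallest adjusted p = 0.388) and 0 in shoots (0.538%, smallest adjusted p = 0.0728), with 2 members at an unadjusted p under 0.05 in each organ.

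The 1 member that differed was AT3G04230 of S16. In shoots it had 3.79, 4.27 and 4.45 on OX.7.5 -S arrays and 3.92, 4.11 and 3.73 on OX.7.5 nS arrays, against 4.17, 4.19 and 3.81 on WT -S arrays and 4.86, 4.72 and 5.55 on WT nS arrays. The WT nS arrays stood above all others, with replicate 3 the highest, and the other 3 groups shared a range. OX.7.5 minus WT was -1.13 in nS shoots (SE 0.22, adjusted p = 0.00481), and 0.11 in -S shoots (adjusted p = 0.994). The call was lost without WT shoots nS replicate 3 (-0.87, adjusted p = 0.0543). At -S it fell in WT shoots (-0.99, 0.504 of the nS level, adjusted p = 0.00121) and changed by 0.25 in OX.7.5 shoots, and the difference of 1.24 missed the threshold (adjusted p = 0.0728), which it passed without WT shoots nS replicate 2 (1.40) or OX.7.5 shoots -S replicate 1 (1.43). Set against its paralog AT2G09990 within each array, the response of AT2G09990 minus that of AT3G04230 was -0.38 in OX.7.5 and 1.46 in WT shoots, and these differed by -1.85 (adjusted p = 0.0442, where 0.542% of all rows fitted were called). This was the only 1 of the 43 pairs with a line difference in shoots, there was 0 in roots (0.0603%, smallest adjusted p = 0.316), and it was lost in 25 of 33 other settings, among them the omission of any 1 of 19 arrays (-1.48 without OX.7.5 shoots nS replicate 3). AT2G09990 had a low signal in both organs (mean 2.33 in shoots).

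The other loci closest to a line difference stayed short of it. In roots AT4G30800 of S11 had the smallest p, with a line by sulfur difference of -0.64 (SE 0.24, adjusted p = 0.388). AT1G58380 of S2 had 3.75, 3.70 and 3.63 on OX.7.5 -S root arrays, against 2.43, 2.33 and 2.68 on OX.7.5 nS arrays, and 2.97, 2.96 and 3.90 on WT -S arrays, against 3.58, 2.53 and 2.73 on WT nS arrays. The OX.7.5 groups stood apart and the WT groups overlapped, WT -S replicate 3 and nS replicate 1 being far from the rest of their groups. It rose in OX.7.5 (1.21, adjusted p = 0.00048), changed by 0.33 in WT (adjusted p = 0.369), and the difference of 0.88 was not called (SE 0.34, adjusted p = 0.388). In shoots AT2G04390 of S17 had 8.06, 7.92 and 7.82 on OX.7.5 -S arrays, against 8.16, 8.08 and 8.27 on OX.7.5 nS arrays, and 8.01, 8.14 and 7.84 on WT -S arrays, against 7.96, 7.96 and 7.54 on WT nS arrays. The WT groups overlapped, and the line by sulfur difference was -0.41 (adjusted p = 0.548).

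**Figure D5:**
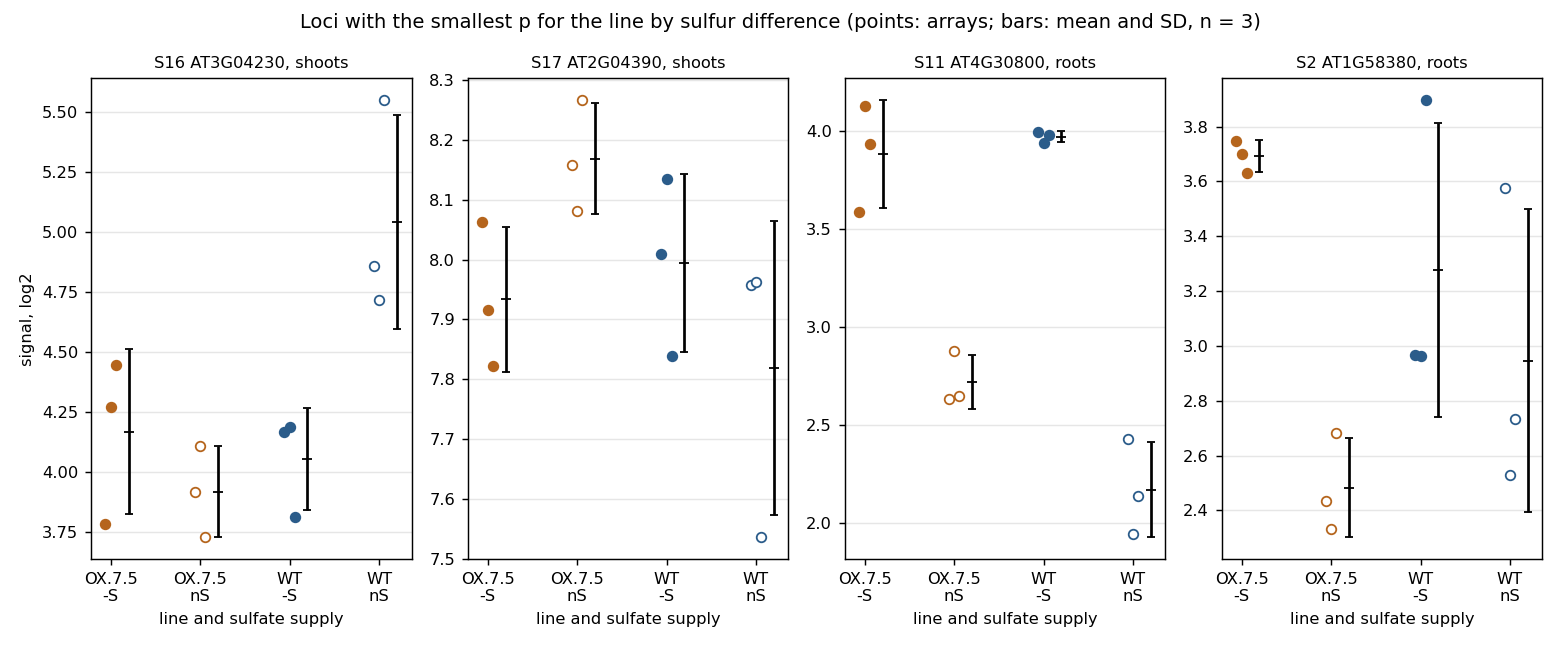
Log2 signals (vertical axes, a scale for each panel) of the 2 loci in shoots and the 2 in roots with the smallest p for the line by sulfur difference, by line and sulfate supply (horizontal axis). Points are arrays, filled at -S and open at nS, and bars are the mean and SD of 3 arrays. For AT3G04230 the WT nS shoots stand above the other groups, and for AT4G30800 the -S roots of both lines share a range.

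Loci of the rest of the subunit were counted in the same way. Of 37 further loci of the 40S subunit and of RACK1, some of them for proteins of the set such as S27a, 14 were measured. Of these, 7 rose in OX.7.5 roots and 6 in WT roots, 0 fell, and the medians were 0.51 and 0.40. Examples are AT2G45710 (1.21 and 0.76) and AT5G47930 (0.94 and 0.86), both of S27, a zinc-binding protein, and AT4G34555 (0.84 and 0.94) of S25. Of 9 genes of the TOR kinase pathway, which drives ribosome production when nutrients are at hand, 3 were measured. RAPTOR2, for a TOR partner, rose in WT roots (1.06, adjusted p = 0.00575) and changed by 0.04 in OX.7.5 roots (adjusted p = 0.951), a difference between the lines that was not called (adjusted p = 0.388). AT5G63190 fell in the roots of both lines (-0.94 and -1.03) and rose in WT shoots (0.45). RAPTOR1 was not called in either organ or line.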

How the data were processed

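Per the labels and methods, RNA of 24 samples was hybridised to Affymetrix Arabidopsis gene arrays. The deposited values are log2 signals that the authors made by robust multi-array averaging in Partek, whose version is not given in the sources used here, and shoots and roots appear to have been normalised apart. They were used unchanged. Of 28583 probe sets, 16746 named 1 gene, 758 several and 11079 none in the platform annotation, and the brightest was kept, which left 16552 genes. The members, lists and tests were chosen with earlier results of these data known.

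limma 3.58.1 in R 4.3.3 was fitted with a mean for each of 8 groups (16 residual degrees of freedom), with Benjamini-Hochberg adjustment over all genes and calls at an adjusted p under 0.05. Paralogs were compared by 43 within-array log2 differences added to the fit. The fit was tested on simulated data. The methods' thresholds, a fold of 1.5 with an unadjusted p under 0.05, were 1 of 34 alternatives. By rule, all members could be named, with array values for the 6 of largest and 4 of smallest change in roots, the 3 of largest and 5 of smallest change in shoots, both loci of the 6 root and 4 shoot pairs of largest difference (at most 2 pairs a protein), and the 2 loci an organ of smallest p for the line by sulfur difference. The array values of AT5G59240 in shoots and AT4G25740 in roots were added after their values were seen. Positions of loci came from RefSeq (TAIR10.1), which held all 60. The precision is limited by 3 arrays a group. The labels call them biological replicates and say nothing more of how far they were grown apart. Within an organ, replicate numbers did not pair the samples (mean correlation of deviations of same-numbered arrays -0.02 to 0.05). Pairing of roots with shoots was not checked, and the fit treated them as independent. A planned search for promoter motifs was not carried out.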

Additional observations from a re-analysis of the deposited data

Results flagged for a closer look

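The following results concern a difference of the response to -S between the organs or between the lines that itself passed the test (limma, adjusted p under 0.05). In groups of 3 arrays, single arrays far from the rest were not tested for. The difference of response, roots minus shoots, in OX.7.5 was 1.76 for AT3G09680 and 0.52 for AT5G02960 (S23), 1.51 for AT5G59240 (S8), 1.27 for AT5G09500 and 0.99 for AT5G09510 (S15), 1.06 for AT1G23410 (S27a), 1.05 for AT5G18380 (S16), 0.91 for AT4G25740 (S10), 0.86 for AT4G30800 (S11), 0.78 for AT3G57490 (S2) and 0.69 for AT2G04390 (S17). In WT it was 1.80 for AT3G04230 (S16), 1.75 for AT4G30800, 1.65 for AT3G09680, 1.17 for AT1G23410, 1.05 for AT5G43640 (S15), 1.02 for AT4G25740, 0.93 for AT5G59240 and 0.66 for AT3G57490. In each of these 19 results roots had the higher change. Some of these loci had low signals in shoots, where AT3G09680, AT5G59240, AT4G30800 and AT1G23410 stood at percentile 24.1, 18.5, 27.6 and 3.3 of gene signals. Whether these signals lay above background was not tested. In roots AT5G09500 and AT5G43640 stood at percentile 17.1 and 33.2, and both were among the loci of low signal in both organs. The response of AT5G09500 was not called in either organ of OX.7.5. Several of the 19 calls rested on single arrays. In OX.7.5 that of AT4G30800 was lost without roots -S replicate 2 (0.74), that of AT5G02960 without shoots nS replicate 2 or 3, roots nS replicate 1 or 2 or replicate 2 of either organ at -S (0.45 to 0.52), that of AT5G09500 without any 1 OX.7.5 array but shoots -S replicate 1 (1.07 to 1.31), and that of AT5G18380 without any shoots nS array, roots nS replicate 1 or 3 or replicate 2 of either organ at -S (0.88 to 1.07). In WT the call of AT5G59240 was lost without roots nS replicate 1 (0.73), that of AT3G57490 without shoots nS replicate 3 (0.58) or roots nS replicate 2 (0.54), and that of AT5G43640 without shoots nS replicate 3 (0.74), roots nS replicate 2 (0.98) or shoots -S replicate 3 (0.87). The difference between the lines in the paralog ratio of S16 in shoots, AT2G09990 over AT3G04230, was -1.85.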

How the results depend on the processing

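Of 5606 recomputed values of 167 results, 5433 kept their side of the threshold and their direction, 133 lost a call, 40 gained one and 0 turned round. With a replicate block, 31 and 33 members were higher in OX.7.5 and WT roots and 19 root pairs differed; the block ended the calls of AT2G41840 in OX.7.5 roots (adjusted p = 0.0521) and of the S16 line difference (adjusted p = 0.0704). Leaving out 1 array gave 26 to 34 higher members in OX.7.5 roots and 26 to 34 in WT roots, 2 to 3 and 2 to 4 higher in OX.7.5 and WT shoots, 0 to 2 and 2 to 4 lower, 18 to 22 root pairs, 6 to 10 shoot pairs, and organ differences for 18 to 27 members in OX.7.5 and 17 to 22 in WT. It gave 0 to 1 line differences in nS shoots (0 without WT shoots nS replicate 3) and 0 to 1 line by sulfur differences in shoots (1, AT3G04230, without WT shoots nS replicate 2 or OX.7.5 shoots -S replicate 1). Medians were 0.52 to 0.64 and 0.49 to 0.61 in OX.7.5 and WT roots and -0.0586 (without OX.7.5 shoots nS replicate 2) to 0.0216 (without nS replicate 3) in OX.7.5 shoots and 0.0421 (without WT shoots nS replicate 3) to 0.0849 in WT shoots. The methods' thresholds gave 21 higher members in WT roots and 24 in OX.7.5 roots, 0 lower in OX.7.5 shoots, 9 root pairs, 1 line difference in nS roots, and 2 and 1 line by sulfur differences in roots and shoots. An intensity trend with a robust prior gave 5 higher members in WT shoots, and leaving out dim genes 3 shoot pairs. Repeated quantile normalization moved the WT root median to 0.42, and centring the arrays moved the WT shoot median to 0.12. The cause was not tested where an alternative left the same genes and arrays in place.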
